A study of Mus musculus with 4 samples.

Results

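The comparison described here sets the renal cortex of diabetic mice lacking ICAM-1 (the array labelled DM-KO) against that of nondiabetic mice lacking ICAM-1 (the array labelled ND-KO), which are 2 of the 4 arrays in the series. Its probes were kept by measurement quality and not by size of difference. The members and gene lists described below were chosen with earlier results of these data known. A list's count beside a share of all genes is therefore a description only. Of 10032 gene probes, 6399 had a spot of good quality on both arrays, and 6098 (60.8%) remained after 500 probes at 1 edge of the array (301 of them good on both arrays) were left out. These probes stood for 6047 genes, of which 5562 had a symbol. All mice were male C57BL/6J and were killed at 20 weeks of age. DM-KO mice (ICAM-1-/-) had received streptozotocin at 200 mg/kg in citrate buffer into the peritoneum at 8 weeks of age, and ND-KO mice (ICAM-1-/-) citrate buffer alone. Kidneys were taken 12 weeks after the injection. The wild-type arrays used for side-by-side values carried ICAM-1+/+ mice with citrate buffer (ND-WT) or with the same dose of streptozotocin (DM-WT). Per the labels, each group had 5 mice and 1 array; whether an array held RNA of a single mouse or of several is not stated. Every difference below is therefore a difference between 2 arrays, given by its size, with no replicate and no p-value.

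Streptozotocin enters pancreatic beta cells through a glucose transporter, alkylates their DNA and destroys them, and the animals become diabetic for lack of insulin. The kidney cortex is mostly proximal tubule, which reabsorbs filtered glucose, amino acids and phosphate and burns fatty acids for energy. In diabetes, leukocytes enter the kidney, and ICAM-1, an adhesion molecule on endothelial and tubular cells, is one of the proteins that hold them at the vessel wall. A comparison of diabetic and nondiabetic animals that both lack ICAM-1 shows what differs between the cortices when this molecule is missing on both sides.

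Values are normalised intensities on a scale shared by the 4 arrays, and a fold or log2 difference is always DM-KO relative to ND-KO unless the wild-type pair is named. The ND-KO and DM-KO arrays were alike in quality, with good spots for 65.9% and 66.2% of gene probes and median background-subtracted intensities of 44.3 and 46.3. No named probe for Icam1 itself was at hand (Icam2, Icam4 and Icam5 had one), so Icam1 is not analysed here and the genotype labels were not checked by it. Technical error was read from repeated measurements within the pair. Among 84 spots of 15 bacterial control probes the log2 difference had an SD of 0.11, and among 101 probes of 50 genes with several probes the SD was 0.17. A span of 2 SDs of the latter equals 1.26-fold. This error holds neither differences between mice nor those between labelling reactions. The tissue label was checked against cell markers. Proximal tubule genes were bright, with 31 of 33 markers on the array measured and a summed intensity of 47525 (ND-KO) and 43449.8 (DM-KO). Of 11 podocyte markers on the array 5 were measured, with a summed intensity of 3024 (ND-KO) and 2909 (DM-KO). Among these 5, Tcf21 read 1984 on ND-KO against 1856 on DM-KO. The podocyte genes Nphs1, Podxl and Wt1 were not of usable quality on either array.

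Most genes differed little between the ND-KO and DM-KO arrays, and a small set stood out in either direction. Of 6047 genes, 16 were at least 2-fold higher on DM-KO (0.265%) and 11 at least 2-fold lower (0.182%). At 1.5-fold the counts were 111 higher (1.84%) and 92 lower (1.52%). These counts depend on how the background is removed: with a normexp correction and an offset of 50, which shrinks differences of dim genes, 8 genes were 2-fold higher and 3 lower, and 30 higher and 30 lower at 1.5-fold. By any amount, 47.6% of genes were higher and 52.0% lower. The counts of each list below are to be set beside these shares of all genes. The median log2 difference over all genes was -0.01, the SD 0.25, and 76.8% of genes lay within 0.25 of no difference. The arrays were normalised to a common distribution, which largely sets this median and the near-even split in advance. Across genes the log2 levels on both arrays had a Pearson correlation of 0.990, which describes genes and not replicates. The wide range of levels between genes makes such a correlation high. Dim genes scattered more. The SD of the log2 difference was 0.29 in the 1512 dimmest genes and 0.23 in the 1512 brightest.

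**Figure D1:**
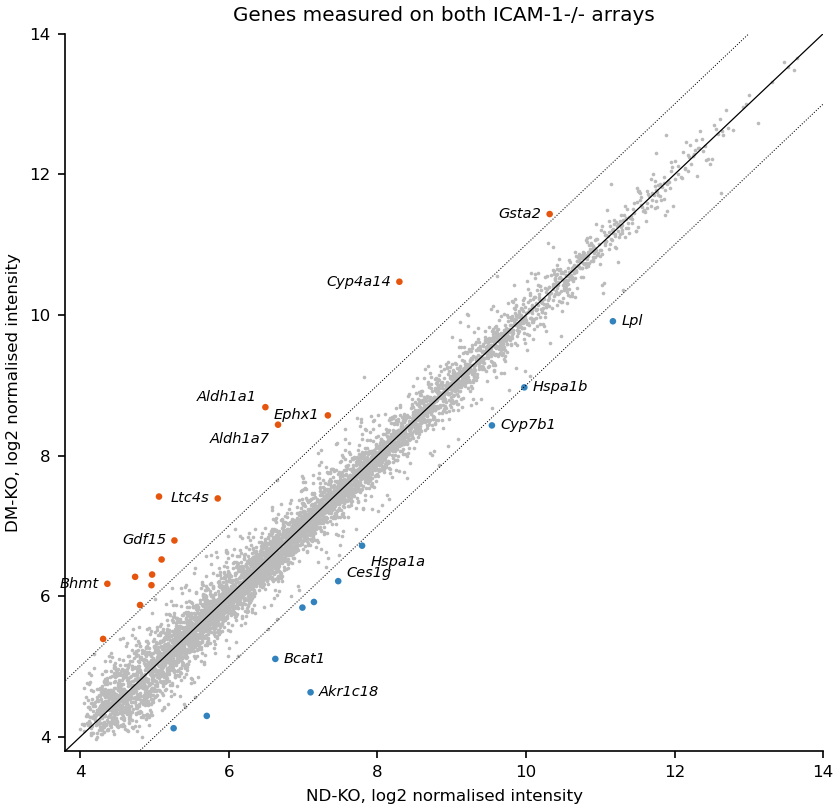
Normalised log2 intensity of the 6047 genes on the ND-KO array (x axis) and the DM-KO array (y axis). Each grey point is a gene, the solid line marks equal levels and the dotted lines a 2-fold difference. Coloured points are genes with a symbol that are at least 2-fold higher (orange) or lower (blue) on DM-KO, and the bright ones among them include Gsta2, Cyp4a14 and Lpl.

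The genes highest on DM-KO included enzymes that oxidise aldehydes and fatty acids. Aldh1a1, a retinaldehyde dehydrogenase that makes retinoic acid, read 90.0 on ND-KO against 413 on DM-KO, 4.58-fold, and its close relative Aldh1a7 read 101 on ND-KO against 347 on DM-KO, 3.43-fold. The coding sequences of this pair are similar, and a probe of one may take up signal of the other. Of 10 measured genes for aldehyde dehydrogenases and retinoid handling these were the 2 past 1.5-fold, and the list's median log2 difference was 0.10. Aldh3a2, which oxidises fatty aldehydes, differed by -0.12 and the mitochondrial Aldh6a1 by -0.07 on the log2 scale. Cyp4a14, a fatty acid hydroxylase controlled by PPAR-alpha and higher in female than in male kidney, read 314 on ND-KO against 1421 on DM-KO, 4.52-fold. Hao2, a peroxisomal hydroxy acid oxidase, read 1254 on ND-KO against 2075 on DM-KO, 1.65-fold.

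Bhmt and Kynu, enzymes of methionine and tryptophan metabolism, were the only 2 of 36 measured genes of amino acid catabolism to be at least 1.5-fold higher. Bhmt, which remethylates homocysteine with betaine, was dim on ND-KO and read 20.6 on ND-KO against 72.3 on DM-KO, 3.51-fold, or 1.74-fold with normexp at an offset of 50. Kynu, the kynureninase, read 34.2 on ND-KO against 91.9 on DM-KO, 2.69-fold, or 1.69-fold with normexp. Bcat1, the cytosolic aminotransferase for branched-chain amino acids, lay on the opposite side with 98.8 on ND-KO against 34.5 on DM-KO, 2.86-fold lower, or 1.76-fold with normexp. The median of the list was 0.01.

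**Figure D2:**
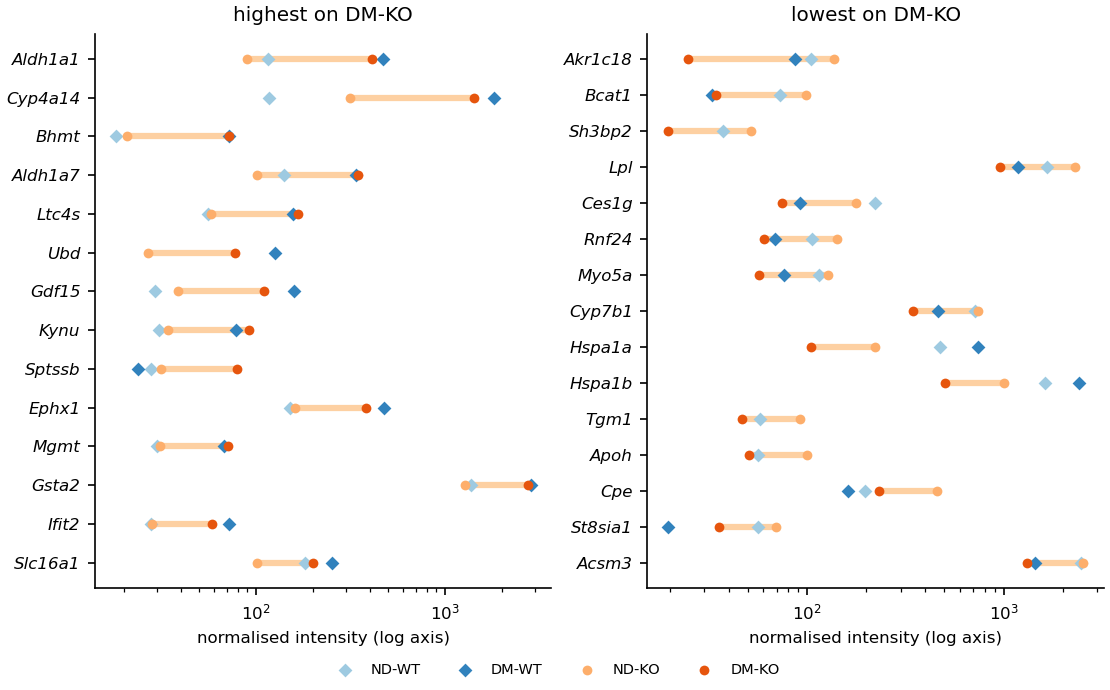
Normalised intensity (log axis) of genes from the 15 highest and the 15 lowest on DM-KO relative to ND-KO, among genes with a symbol and at least 50 on the brighter array. Circles are the ICAM-1-/- arrays joined by a bar, diamonds the wild-type arrays, each a single array, and a missing diamond means that the spot was not usable. Aldh1a1 runs from 90.0 to 413 and Akr1c18 from 137 to 24.8, while Hspa1a and Hspa1b are higher on both wild-type arrays than on either ICAM-1-/- array.

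A handful of enzymes that conjugate, hydrolyse or reduce reactive compounds were higher on DM-KO, led by Ephx1 and Gsta2. Of 34 measured genes for glutathione transferases, NRF2 targets and antioxidant enzymes, 25 were higher and 8 lower, against 47.6% of all genes higher. At least 1.5-fold higher were 5, against 1.84% of all genes, and none was 1.5-fold lower. The median was 0.15. The technical SD of 0.17 is that of a single gene and not of a median. With normexp at an offset of 50, Ephx1 and Gsta2 alone stayed past 1.5-fold. Ephx1, the microsomal epoxide hydrolase, read 161 on ND-KO against 380.5 on DM-KO, 2.36-fold. Gsta2, an alpha class glutathione transferase, was among the brightest of all the genes past 2-fold and read 1277 on ND-KO against 2769 on DM-KO, 2.17-fold; Gsta2 has near-identical relatives that its probe may not tell apart. Cbr1, a carbonyl reductase, read 126 on ND-KO against 208 on DM-KO. Nqo1, the quinone reductase often taken as the readout of NRF2, read 217 on ND-KO against 344 on DM-KO, and Mgst1, a membrane glutathione transferase, 409 on ND-KO against 617 on DM-KO. These 3 lay between 1.51-fold and 1.65-fold. Among other NRF2 targets Gclm was at -0.10 and Txnrd1 at 0.31 on the log2 scale. Sod1, the cytosolic superoxide dismutase, was at -0.33. Ltc4s, which couples glutathione to leukotriene A4, read 57.7 on ND-KO against 168 on DM-KO, 2.91-fold, and was the only 1 of 14 measured leukotriene and prostaglandin enzymes past 1.5-fold. Of 27 measured cytochrome P450s, glucuronosyltransferases, carboxylesterases and related enzymes, 16 were lower and 11 higher, near the share of all genes. In this list 4 were at least 1.5-fold lower, against 1.52% of all genes. Among them were Ces1g, a carboxylesterase (178 on ND-KO against 74.2 on DM-KO, 2.39-fold lower), and Fmo5, a flavin monooxygenase (45.0 on ND-KO against 27.2 on DM-KO).

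To show what lies before the start of genes in the upper group, promoter windows of 250 bases before the RefSeq gene start (GRCm38.p6) were searched on both strands for TGACNNNGC, the core of the element to which NRF2 binds. It was in 2 of 16 windows of 12 matched genes among the 15 highest, in none of 15 windows of 12 matched genes among the 15 lowest, in 10.2% of all 32851 windows and in 11.6% of 5758 windows of genes measured on both arrays. A further set of motifs was searched. GCGTG was in 28.2% of all windows, 43.7% of windows of measured genes and 4 of the 16 of the highest genes. AGAACA was in 16.1%, 11.7% and 2, and the E-box CACGTG in 6.02%, 8.98% and 2. TATAAA was in 12.4%, 7.73% and 3, and a p53 half-site, which is a part of the p53 response element, in 7.13%, 6.20% and 1. In Slc16a1 the letters CACGTG overlap the match to TGACNNNGC. The 2 windows with TGACNNNGC belong to Mgmt, which removes alkyl groups from guanine in DNA and read 31.1 on ND-KO against 71.3 on DM-KO (2.29-fold, or 1.498-fold with normexp), and to Slc16a1, a transporter of lactate and ketone bodies that read 101 on ND-KO against 201 on DM-KO (2.00-fold). The windows of Gsta2, Ephx1, Aldh1a1 and Aldh1a7 did not hold these letters. Both matching windows are printed on the plus strand, on which both genes lie, with the matching letters in capitals. In Mgmt the match is on the gene's strand, from 55 to 47 bases before the start, and in Slc16a1 on the other strand, from 207 to 199 bases before it.
Mgmt, chr7:136894336-136894585: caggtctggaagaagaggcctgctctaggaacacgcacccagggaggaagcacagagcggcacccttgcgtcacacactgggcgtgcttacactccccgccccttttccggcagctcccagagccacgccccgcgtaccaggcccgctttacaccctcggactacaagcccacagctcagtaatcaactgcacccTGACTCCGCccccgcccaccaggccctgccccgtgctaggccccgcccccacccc
Slc16a1, chr3:104638414-104638663: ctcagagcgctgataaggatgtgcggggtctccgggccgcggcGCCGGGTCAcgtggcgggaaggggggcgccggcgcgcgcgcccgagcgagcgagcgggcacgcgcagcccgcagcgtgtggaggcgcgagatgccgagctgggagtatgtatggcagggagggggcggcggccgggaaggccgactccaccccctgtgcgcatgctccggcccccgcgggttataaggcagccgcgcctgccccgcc
A match says only that the letters are there.

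Most measured targets of p53, the transcription factor that answers DNA damage, were higher on DM-KO, some of them barely. Of 14 measured, 13 were higher and 1 lower, against 47.6% of all genes higher by any amount. Of these targets 8 were higher by at least 0.25 on the log2 scale. Perp, Ei24 and Gadd45a, at 0.01, 0.06 and 0.07, lay under the technical SD of 0.17. At least 1.5-fold higher were 4, against 1.84% of all genes, and the median log2 difference was 0.30. With normexp at an offset of 50, Ccng1 and Zmat3 stayed past 1.5-fold. In the wild-type pair 12 of the 14 were higher and 2 lower, with a median of 0.53 against -0.02 over all genes. Zmat3, an RNA-binding protein, read 212 on ND-KO against 371 on DM-KO. Ccng1, cyclin G1, was the brightest of the list and read 556 on ND-KO against 952 on DM-KO, 1.71-fold. Aen, a nuclease of apoptosis, read 54.4 on ND-KO against 88.3 on DM-KO, and Bax, which opens the mitochondrial membrane in apoptosis, 189 on ND-KO against 301 on DM-KO. The death receptor gene Fas had 25.0 on ND-KO against 35.6 on DM-KO, both dim values. A further 4 targets were of usable quality on DM-KO and not on ND-KO, which gives a lower bound only. Of all probes 208 were usable on DM-KO only and 180 on ND-KO only. Cdkn1a, the p21 inhibitor of cyclin-dependent kinases, read 134 on DM-KO and was at least 8.90-fold higher there, the largest upward bound. Phlda3, an inhibitor of AKT, was at least 3.65-fold higher. For Mdm2, the ligase that degrades p53, the bound was 1.91-fold, and for Ddb2, a DNA repair protein, 1.68-fold. Each bound divides the DM-KO value by the higher of the probe's own ND-KO value and the lowest usable value of that array (15.1).

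Most measured genes of tubule injury and of cell division were higher too. Among 16 measured injury genes 13 were higher and 3 lower, against 47.6% of all genes higher. At least 1.5-fold higher were 5, against 1.84% of all genes, and the median of 0.49 was the highest of all lists described. Gdf15, a secreted stress cytokine, read 38.5 on ND-KO against 111 on DM-KO, 2.88-fold, or 1.82-fold with normexp at an offset of 50. S100a6, a calcium-binding protein, read 591 on ND-KO against 1033 on DM-KO. Spp1, osteopontin, was the brightest gene of the list and read 3782 on ND-KO against 6014 on DM-KO, 1.59-fold, and the annexin gene Anxa3 read 41.2 on ND-KO against 66.2 on DM-KO. Clu, clusterin, was at 0.57 on the log2 scale. Vcam1, an endothelial and tubular adhesion molecule, read 85.9 on ND-KO against 81.1 on DM-KO. Of 17 measured cell cycle genes 15 were higher, against 47.6% of all genes, with a median of 0.29. At least 1.5-fold higher were 5, against 1.84% of all genes. None of the 5 was above 71.7, and none stayed past 1.5-fold with normexp. Cdk1, the kinase that starts mitosis, read 19.8 on ND-KO against 42.0 on DM-KO, Kif20a, a kinesin of cell division, 42.9 on ND-KO against 71.7 on DM-KO, and Ccnd1, cyclin D1, 38.1 on ND-KO against 58.8 on DM-KO. Brighter members were closer to no difference, such as Pcna, the DNA polymerase clamp, at 0.24. Ccnb2, Cdc20, Mcm3 and Mki67 of this list were usable on DM-KO only. Outside the list and picked after its value was seen, Bub1b, a kinase of the mitotic checkpoint, was usable on ND-KO only and at least 1.40-fold lower on DM-KO.

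Interferon and macrophage genes were modestly higher. In the list of antigen presentation and interferon response 19 of 23 measured genes were higher and 4 lower, against 47.6% of all genes higher. At least 1.5-fold higher were 5, against 1.84% of all genes, and the median was 0.29. With normexp at an offset of 50, Irf7 and Lgals3bp stayed past 1.5-fold. Ifit2, which binds viral RNA, read 28.0 on ND-KO against 58.6 on DM-KO, 2.10-fold, or 1.40-fold with normexp. Irf7, the factor that amplifies interferon, read 173 on ND-KO against 286 on DM-KO, and Cxcl10, a T cell chemokine, 37.3 on ND-KO against 60.9 on DM-KO. Ubd, a ubiquitin-like protein that interferon induces, read 26.7 on ND-KO against 77.4 on DM-KO, 2.90-fold, or 1.66-fold with normexp. The class I light chain B2m did not follow, with 2612 on ND-KO against 2636 on DM-KO. Of 12 measured macrophage and monocyte markers 11 were higher, against 47.6% of all genes, and 1 was lower, at -0.42 on the log2 scale. Their median was 0.35, and their summed intensity was 1035 (ND-KO) and 1317 (DM-KO). At least 1.5-fold higher were 2 of them, and none with normexp at an offset of 50. The complement chains C1qa, C1qb and C1qc differed by 0.51, 0.42 and 0.62 on the log2 scale, and Ctss, cathepsin S, by 0.53. The defining macrophage genes Adgre1, Itgam and Mrc1 were not usable on either array. In whole tissue, more cells of a type and more RNA per cell cannot be told apart, and the part of macrophages in the interferon values was not tested. Ccl2, the monocyte chemokine, read 51.6 on ND-KO against 77.9 on DM-KO, while Ccl25, a chemokine of gut lymphocytes, read 45.5 on ND-KO against 28.2 on DM-KO. Of 6 measured lymphocyte markers 4 were higher and 2 lower, with a median of 0.20. Ighm read 24.8 on ND-KO against 40.3 on DM-KO, Cd4 27.9 against 35.1, and Jchain 102 against 82.0. Ighm alone was past 1.5-fold, and none was with normexp at an offset of 50. Other T cell genes such as Cd3e and Cd8a and the leukocyte gene Ptprc were not usable on either array.

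The most uniform lower group was that of androgen-dependent genes of the male mouse kidney. All 9 measured members were lower on DM-KO, 6 of them at least 1.5-fold, and the median of -0.79 was the lowest of all lists, against 52.0% of all genes lower by any amount. Cyp7b1, an oxysterol and steroid hydroxylase, read 745 on ND-KO against 345 on DM-KO, 2.16-fold lower. Acsm3, a medium-chain acyl-CoA synthetase, read 2534 on ND-KO against 1312 on DM-KO, and Nudt19, a CoA hydrolase, 6325 on ND-KO against 3419 on DM-KO. Cyp4a12a, the male fatty acid hydroxylase, read 1063 on ND-KO against 561 on DM-KO, which is opposite in direction to its female-biased relative Cyp4a14. Odc1, which makes polyamines, read 1019 on ND-KO against 591 on DM-KO, and Kap, the kidney androgen-regulated protein, 2114 on ND-KO against 1398 on DM-KO. The smallest differences were those of Cyp4b1 at -0.40, Gusb at -0.40 and Cyp2d9 at -0.28 on the log2 scale. All 9 were bright, from 84.5 (Gusb) upward, so their values lie far from the background. In the wild-type pair all 9 were lower as well, with a median of -0.75 against -0.02 over all genes.

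Outside that list, Akr1c18 and Lpl were among the genes furthest below. Akr1c18, the 20-alpha-hydroxysteroid dehydrogenase that inactivates progesterone, read 137 on ND-KO against 24.8 on DM-KO, 5.53-fold lower and the lowest log2 difference of all genes. With normexp at an offset of 50 it was 2.51-fold lower. The wild-type arrays lay near ND-KO, with 105 on ND-WT and 86.9 on DM-WT. The adrenal genes Star, Cyp11a1, Cyp21a1, Cyp17a1 and Hsd3b1 were not usable on either array. Another 5 adrenal markers were measured, 2 higher and 3 lower, with summed intensities of 1113 (ND-KO) and 927 (DM-KO). Among them Th read 67.7 on ND-KO against 61.0 on DM-KO, and Pnmt 60.6 against 66.7. The part of adrenal tissue in the Akr1c18 value was not tested. Lpl, lipoprotein lipase, read 2304 on ND-KO against 962 on DM-KO, 2.39-fold lower. Fat cell genes moved with it in part. Cfd (adipsin) read 77.8 and Adipoq (adiponectin) 46.7 on ND-KO, and neither was usable on DM-KO, where Cfd was at least 5.42-fold and Adipoq at least 3.25-fold lower. Neither gene was usable on the wild-type arrays. Car3, a carbonic anhydrase abundant in fat, read 159 on ND-KO against 98.5 on DM-KO. The measured fat markers were mixed: of 8, with Lpl and Car3 among them, 4 were higher and 4 lower. Fabp4 read 798 on ND-KO against 840.2 on DM-KO, and Dgat2 257 on ND-KO against 222 on DM-KO. The 7 measured markers without Lpl had summed intensities of 1483 (ND-KO) and 1452 (DM-KO). That sum holds Car3, and Fabp4 makes up most of it. The part of fat tissue in the Lpl value was not tested. Cpe, carboxypeptidase E, which trims peptide hormones, read 456 on ND-KO against 232 on DM-KO, and its ND-KO level was the highest of the 4 arrays, with 198 on ND-WT and 161 on DM-WT. Myo5a, a vesicle motor, read 127 on ND-KO against 57.2 on DM-KO, Rnf24, a membrane ubiquitin ligase, 142 on ND-KO against 60.4 on DM-KO, and Sh3bp2, a signalling adaptor, 52.1 on ND-KO against 19.7 on DM-KO. With normexp Sh3bp2 was 1.47-fold lower.

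Along the nephron, differences were small. Of 17 measured collecting duct genes 16 were higher, against 47.6% of all genes, with a median of 0.20. Aqp2, the vasopressin-regulated water channel, stood out at 785 on ND-KO against 1509 on DM-KO, 1.92-fold. The sodium channel subunits Scnn1a, Scnn1b and Scnn1g were at 0.21, 0.23 and 0.20, Aqp3, the basolateral water channel, at 0.16, and Avpr2, the vasopressin receptor, at 0.30 on the log2 scale. In the thick limb and distal tubule, Calb1, the calcium carrier of the distal convoluted tubule, read 2255 on ND-KO against 3739.9 on DM-KO, and Umod, uromodulin, 3819.5 on ND-KO against 2851 on DM-KO. Of 31 measured proximal tubule genes 20 were lower and 11 higher, with a median of -0.11, and Slc16a1 alone was past 1.5-fold. Slc34a1, the phosphate transporter, was at -0.22, and the brush border protease gene Mep1b at -0.49. Agt, angiotensinogen, read 127 on ND-KO against 205 on DM-KO, 1.61-fold, the only 1 of 9 measured genes of the renin-angiotensin and blood pressure list past 1.5-fold, and it was not past it with normexp at an offset of 50.

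**Figure D3:**
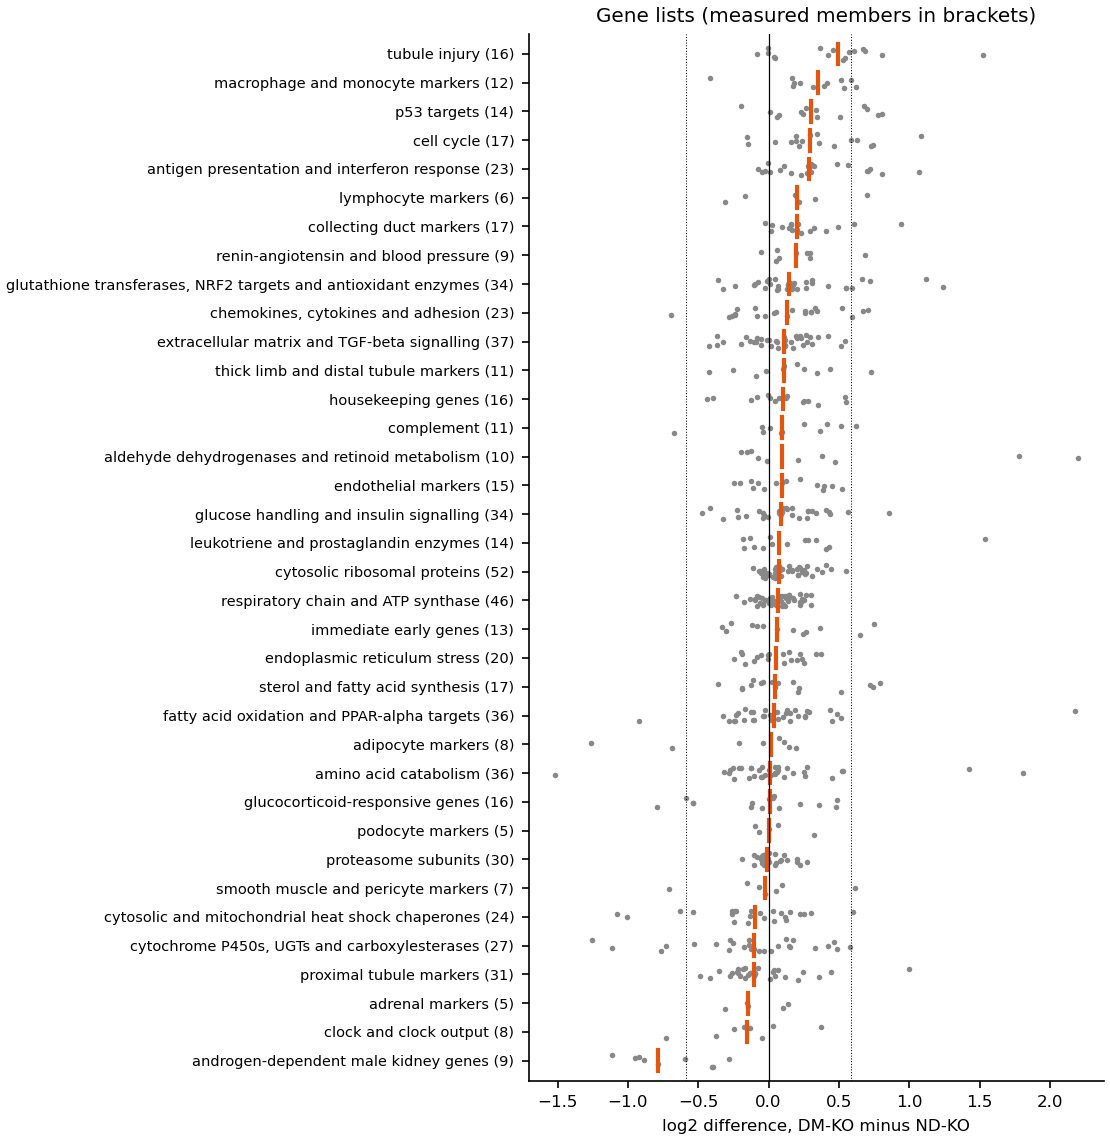
Log2 difference, DM-KO minus ND-KO, of the measured members of each gene list with at least 5 of them. Grey points are genes (jittered vertically), orange bars list medians, and dotted lines mark 1.5-fold. Androgen-dependent genes have the lowest median (-0.79) and tubule injury genes the highest (0.49), while most lists are centred near 0.

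The inducible HSP70 genes, their partner Dnajb1 and a few corticoid-responsive genes were lower, while the lists that hold them had no common direction. Hspa1a and Hspa1b, the near-identical genes of inducible HSP70, which share sequence and may share signal, read 222 on ND-KO against 105 on DM-KO for the first and 1008 on ND-KO against 501 on DM-KO for the second, 2.11-fold and 2.01-fold lower, or 1.75-fold and 1.92-fold with normexp. Dnajb1, an HSP40 partner, read 97.3 on ND-KO against 62.8 on DM-KO. Of 24 measured chaperones 10 were higher and 14 lower, with a median of -0.09. With normexp at an offset of 50, Hspa1a and Hspa1b alone of these stayed past 1.5-fold. The stress-inducible small chaperones Hspb1 and Hspb8 were at 0.22 and 0.25 on the log2 scale. Hspa4l, a dim member, read 20.3 on ND-KO against 30.7 on DM-KO. Hspe1, the mitochondrial HSP10, read 166 on ND-KO, was not usable on DM-KO and was at least 11.5-fold lower there. Its values on the wild-type arrays were 152 and 162, so the DM-KO spot stood alone. Among glucocorticoid-responsive genes Bcl6, a transcriptional repressor, read 162 on ND-KO against 93.4 on DM-KO, Tsc22d3 (GILZ) 673 on ND-KO against 447 on DM-KO, and the HSP90 cochaperone Fkbp5 79.8 on ND-KO against 55.0 on DM-KO. The list as a whole had 9 genes higher and 7 lower, with a median of 0.01. In it 2 genes were at least 1.5-fold lower, and none with normexp at an offset of 50. Sgk1, a kinase that raises sodium transport, read 213 on ND-KO against 224 on DM-KO.

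Clock genes were mostly dim. Of 8 measured, 6 were lower and the median was -0.16. Dbp, a clock output factor and the brightest of them, read 1285 on ND-KO against 777 on DM-KO, 1.65-fold lower. Arntl, which encodes the activator BMAL1, was usable on DM-KO only and at least 2.55-fold higher there. The repressor genes Per2, Per3 and Cry1 were usable on ND-KO only, with Per2 at least 2.00-fold lower on DM-KO.

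Many of the genes that carry out the main work of the tubule differed little. Of 36 measured genes of fatty acid oxidation and PPAR-alpha targets 20 were higher and 16 lower, with a median of 0.04, and Cyp4a14 and Cyp4a12a alone were past 1.5-fold. Acadm, the medium-chain dehydrogenase, was at -0.28 on the log2 scale. In glucose handling 34 genes had a median of 0.09. Pck1, the key enzyme of gluconeogenesis, read 4019 on ND-KO against 3004 on DM-KO, Txnip, which glucose induces, 459 on ND-KO against 619.8 on DM-KO, and Igfbp1, which insulin represses, 23.2 on ND-KO against 41.9 on DM-KO. Igfbp1 was the only gene of that list past 1.5-fold, and none was with normexp at an offset of 50. Sterol and fatty acid synthesis had a median of 0.04 over 17 genes. Its 3 members past 1.5-fold were Fdft1 (18.2 on ND-KO against 31.5 on DM-KO), Fdps (219.6 on ND-KO against 367 on DM-KO) and Sqle (57.1 on ND-KO against 94.3 on DM-KO), enzymes that lead through farnesyl diphosphate to squalene epoxide. Fdps alone stayed past 1.5-fold with normexp. None of the 37 measured matrix and TGF-beta genes was past 1.5-fold in either direction, and their median was 0.11. The same held for 46 respiratory chain and ATP synthase genes (median 0.07), 52 cytosolic ribosomal protein genes (0.07), 30 proteasome subunits (-0.01) and 20 genes of endoplasmic reticulum stress (0.05). Housekeeping genes had a median of 0.10 over 16 genes, endothelial markers 0.10 over 15, complement genes 0.10 over 11, and chemokines, cytokines and adhesion genes 0.13 over 23.

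Genes usable on 1 array of the pair added 15 probes at least 2-fold higher on DM-KO, out of 208 usable there only, and 10 at least 2-fold lower, out of 180 usable on ND-KO only. After Cdkn1a, the largest bound upward was that of Ugt1a2, a glucuronosyltransferase, which read 122 on DM-KO and was at least 8.06-fold higher. The Ugt1a genes share their last exons, and a probe there cannot tell them apart. Cdc26, a subunit of the anaphase-promoting complex, was at least 3.38-fold higher and Speer4f1 at least 2.70-fold higher. Downward, after Hspe1 and Cfd, Matn2, a matrix protein, read 50.7 on ND-KO and was at least 3.53-fold lower on DM-KO, and 1700030J22Rik at least 2.87-fold lower.

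The wild-type pair shares no array with the ICAM-1-/- pair, and its values can be set beside these; the difference between the pairs was not tested. Among 5689 genes usable on all 4 arrays, 72 were at least 2-fold higher (1.27%) and 19 at least 2-fold lower (0.334%). Over all genes the median wild-type difference was -0.02, so more genes were lower than higher in that pair. Of 99 genes at least 1.5-fold higher on DM-KO with a wild-type value, 88 were also higher on DM-WT and 46 of them by 1.5-fold (4.06% of all genes), with a median wild-type difference of 0.53. Of 79 such lower genes, 67 were also lower on DM-WT and 38 by 1.5-fold (2.53% of all genes), with a median of -0.57. Both diabetic arrays lay above both nondiabetic ones for 85 of the 99 higher genes, against 18.2% of all genes, and below them for 62 of the 79 lower genes, against 22.8%. These shares draw on the ICAM-1-/- values that chose the genes. Aldh1a1, Bhmt, Gsta2 and Ces1g had log2 differences of 2.03, 1.98, 1.05 and -1.26 in wild type against 2.20, 1.81, 1.12 and -1.26 without ICAM-1, each closer than 0.33, the span of 2 technical SDs. Other genes named above were further apart than that span. Aldh1a7 stood at 1.26 in wild type against 1.78 without ICAM-1, and Ephx1 at 1.65 against 1.24. Gdf15 stood at 2.44 against 1.52 and Lpl at -0.49 against -1.26. Interferon genes were further apart as well. Irf7 stood at 2.80 in the wild type against 0.72, Ifit1 at 2.25 against 0.81, and the list's median at 0.97 against 0.29. Macrophage markers had a median of 0.69 in the wild type against 0.35. Cyp4a14 stood at 3.95 against 2.18, and on the diabetic arrays it read 1812 in wild type and 1421 without ICAM-1. On the nondiabetic arrays it read 117 in wild type and 314 without ICAM-1. For Palld, an actin crosslinker, Ptk2, the focal adhesion kinase, and Tceal8 the ND-KO array stood apart, at 32.2, 37.6 and 46.5. On the other 3 arrays Palld read between 62.5 and 81.1, Ptk2 between 67.7 and 69.8, and Tceal8 between 77.7 and 84.2. Sptssb, a subunit of the first enzyme of sphingolipid synthesis, was high on DM-KO alone (1.59-fold above ND-KO with normexp), with 31.3 on ND-KO against 79.2 on DM-KO, and 27.7 on ND-WT and 23.6 on DM-WT.

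**Figure D4:**
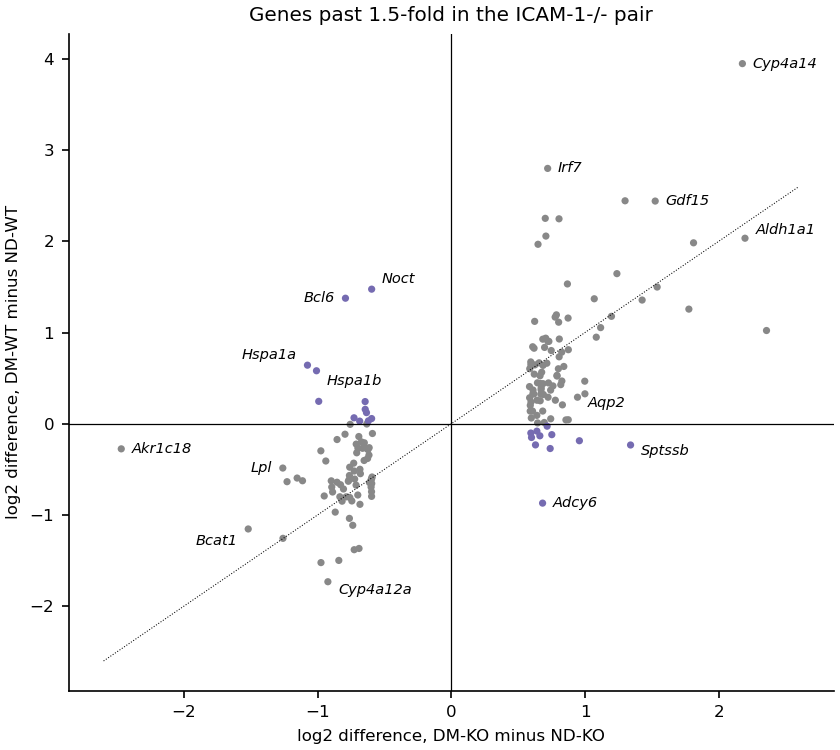
Log2 difference between diabetic and nondiabetic arrays in ICAM-1-/- mice (x axis) and in wild type (y axis) for the genes at least 1.5-fold different in the former, each point a gene. The dotted line marks equal differences and purple points have opposite signs. Over all genes the median wild-type difference was -0.02. Most points lie in the quadrants of equal sign (88 of 99 higher and 67 of 79 lower genes), and Bcl6, Noct, Hspa1a and Adcy6 lie far from them.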

How the data were processed

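Total RNA from renal cortex was labelled with biotin and hybridised to 1 one-colour CodeLink array per group, per the labels' protocols. The deposited scanner tables hold each spot's mean intensity and its local background median on a linear scale, with a quality flag, per the file headers. The deposited series value table equalled this net intensity divided by 1 constant per array. From the scanner tables, signal mean minus background median was quantile-normalised over the 4 arrays in Python 3.11.15, converted to log2, and probes of a gene were averaged. Thus the log2 values are computed from the authors' intensity values. Probes with flag 0 on both ICAM-1-/- arrays were kept, and spots of meta row 1, columns 44 to 48, were left out. Background correction with limma 3.58.1 (R 4.3.3) and other alternatives are in the closing section. The number of arrays, 1 per group, limits precision, and no test was run. The counting was checked on simulated data. Symbols came from the platform annotation (8923 probes) or accessions (286), with 822 unnamed. The members and gene lists were chosen with earlier results of these data known. Named genes were the 15 highest and 15 lowest of at least 50 on the brighter array, genes past 2-fold, in each list up to 4 members that differed most, the 5 largest bounds each way, and list or family members beside them. Genes outside this rule that stand apart on 1 array or run in opposite directions between genotypes were chosen after their values were seen. Some genes that the rule selects are not reported here. Lists with fewer than 5 measured members (female-biased kidney genes, neutrophil, skeletal muscle and red cell markers) were not described.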

Additional observations from a re-analysis of the deposited data

Results flagged for a closer look

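Some genes were at least 1.5-fold different in both genotypes but in opposite directions, with 1 array per group and no test of the difference. Hspa1a differed by -1.08 on the log2 scale between DM-KO and ND-KO and by 0.64 between DM-WT and ND-WT. Its intensities were 222 on ND-KO against 105 on DM-KO, and 475 on ND-WT and 742 on DM-WT. Bcl6, a transcriptional repressor, differed by -0.79 without ICAM-1 and by 1.38 in wild type, where it read 64.5 on ND-WT and 167 on DM-WT. Noct, a phosphatase with daily rhythm, differed by -0.60 and 1.48, with 81.7 on ND-KO against 54.1 on DM-KO and 141 on ND-WT and 392 on DM-WT. Adcy6, an adenylate cyclase, ran the other way at 0.68 and -0.87, with 96.0 on ND-KO against 154 on DM-KO and 141 on ND-WT and 76.9 on DM-WT. These differences were not tested.

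Spots at the array's edge were left out of every count above. Of these spots 301 were usable on the ND-KO and DM-KO arrays alike, 4 of them at least 2-fold higher on DM-KO and none at least 2-fold lower. They were Lrp1 at 1.06, Hnf4a at 1.21, Pacsin2 at 1.27 and H2-DMa at 1.44 on the log2 scale. All 4 sit in column 48, between rows 17 and 25.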

How the results depend on the processing

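Each count, list median and named gene was recomputed under 11 alternatives. Among list medians, 391 values stayed within 0.17 of the reported one and 1 moved further. That span is the technical SD of a single gene and is wider than many list medians, so it is a loose standard for them. The median of immediate early genes, for example, ran from -0.08 to 0.13. Among named genes 1549 values stayed within the span and 134 moved further. Only values reported as at least 1.5-fold could be labelled as reversed, and none was. All of the 16 higher and 11 lower genes past 2-fold kept their direction under every alternative that gave them a value. Counts moved by over 1.5 times in the following cases. With normexp and an offset of 50, 8 genes were 2-fold higher and 3 lower, and 30 higher and 30 lower at 1.5-fold. With an offset of 16, 6 genes were 2-fold lower, and 56 higher and 53 lower at 1.5-fold. An offset shrinks differences of dim genes by its construction. With the spot median in place of the mean, 25 genes were 2-fold higher and 17 lower, and the median of androgen-dependent genes was -0.60; the cause was not tested. With no filter on dim probes, 9362 genes were counted, of which 56 were 2-fold higher and 36 lower, and 303 higher and 256 lower at 1.5-fold. Some list medians changed side relative to that of all genes under some alternative, among them those of adipocyte, adrenal, proteasome and respiratory chain genes, and no direction is claimed for them. No paired analysis was possible because each group has 1 array. Leaving out a replicate was not possible for the same reason. Signal over background limits the 1512 dimmest genes, up to an intensity of 47.2, where the spread is widest.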

Other observations

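The genes past 2-fold were spread over the array. Excluding its edge, the surface was divided into 88 blocks with median log2 differences from -0.15 to 0.18, and the 27 probes past 2-fold lay in 23 of them, with at most 2 in 1 block.

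Several genes outside the described lists differed by at least 1.5-fold and are given as values. Tnc, the matrix glycoprotein tenascin C, read 41.1 on ND-KO against 69.2 on DM-KO. Plk2, a kinase of the stress response, read 63.3 on ND-KO against 116 on DM-KO, and Aoc1, a diamine oxidase, 67.8 on ND-KO against 124 on DM-KO. Ms4a4d read 42.5 on ND-KO against 21.4 on DM-KO and Susd3 543 on ND-KO against 300.5 on DM-KO, both lower on DM-KO, with 25.9 on ND-WT and 30.7 on DM-WT for the former and 594 on ND-WT and 527 on DM-WT for the latter. Among genes lower in both genotypes, Car3 differed by -0.69 without ICAM-1 and -1.37 in wild type, and Anxa13, an annexin of epithelia, by -0.84 and -1.50. These genes were chosen after their values were seen.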
